A study of Homo sapiens with 6 samples.

Results

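The endoplasmic reticulum (ER) folding machinery was described here through 48 listed genes for chaperones, co-chaperones and disulfide folding enzymes. The list was given by gene name and was drawn up with earlier results of these data known. Each identifier was matched to its symbol without the version number. All 48 had a row among the 13885 genes of the authors' deposited table. The cells were BE(2)-C, an established human neuroblastoma line with amplified MYCN. A small interfering RNA against PCIF1 (siPCIF1) was transfected for 24 h in 3 samples, and a scrambled one (siScram) in 3 samples. All 6 samples, labelled wild type, subsequently received all-trans retinoic acid at 10 µM over 4 days, so both groups were retinoid-treated and neither was untreated. The experiment used 1 siRNA product per group in 1 cell line, and whether replicates were separate cultures is left unsaid by the labels. P-values therefore measure only the spread between these samples, which may be technical.

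Proteins that enter the secretory pathway fold inside the ER. HSP70-type and HSP90-type chaperones hold unfolded chains there, lectin chaperones read their sugars, and protein disulfide isomerases form and reshuffle disulfide bonds with oxidases as their electron acceptors. Prolyl isomerases turn proline peptide bonds. When unfolded proteins build up, the sensors IRE1 (encoded by ERN1), PERK (EIF2AK3) and ATF6 start the unfolded protein response (UPR), and the factors ATF6 and XBP1 raise transcription of many of these genes. The enzyme PCIF1 adds a methyl group to an adenosine next to the mRNA cap, which gives m6Am.

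The deposited values were a mean over all 6 libraries and a DESeq2 comparison of the groups for each gene, so no value per library was analysed here and error is given as the SE of the log2 fold change. Mean normalised counts in the authors' deposited table ran from 7.01 to 4.78e+06 per gene around a median of 175.5. Sequencing depth per library is unknown from the sources used here. The header does not state the direction. Fold changes are given as siPCIF1 over siScram because PCIF1 itself then comes out lower, at -0.82 (SE 0.19) on the log2 scale per the authors' deposited table, or 56.6% of its siScram level (DESeq2 adjusted p = 0.000167). Its sign is for that reason no evidence of a knockdown. The name of the table puts siScram before siPCIF1, and read that way every direction below would turn. All 12 listed neuroblastoma and sympathetic neuron markers, PHOX2A, HAND2, GATA3, TH and DBH among them, were measured, of which 5 rose and 2 fell, while 0 of 4 immune markers were measured. Of 7 fibroblast markers 5 were measured, 1 of which fell, and of 4 Schwann cell markers 2 were measured, 1 of which rose. Their part in the results was not tested.

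Most of the folding genes were lower with siPCIF1. At a DESeq2 adjusted p under 0.05, 35 of the 48 fell per the authors' deposited table, 1 rose and 12 did not pass. Of all genes in it, 17.7% fell and 16.3% rose, 34.0% in either direction. In bulk RNA, fewer cells of a type and less RNA per cell cannot be told apart. The median log2 fold change of the 48 genes was -0.75 per the authors' deposited table, against 0.0059 for all genes, and 41 of the 48 values were below 0. A decrease of at least 1 on the log2 scale, which is a halving, was seen in 20 of the 48, against 3.23% of all genes of the authors' deposited table. As deposited, CRELD2, ERO1B and SDF2L1 had the 4th, 5th and 8th lowest log2 fold changes among all 13885 genes, HYOU1 the 13th and PDIA4 the 19th. The values appear shrunken, and these ranks change when they are estimated without shrinkage. The plot of all members by role shows the spread within each role.

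**Figure D1:**
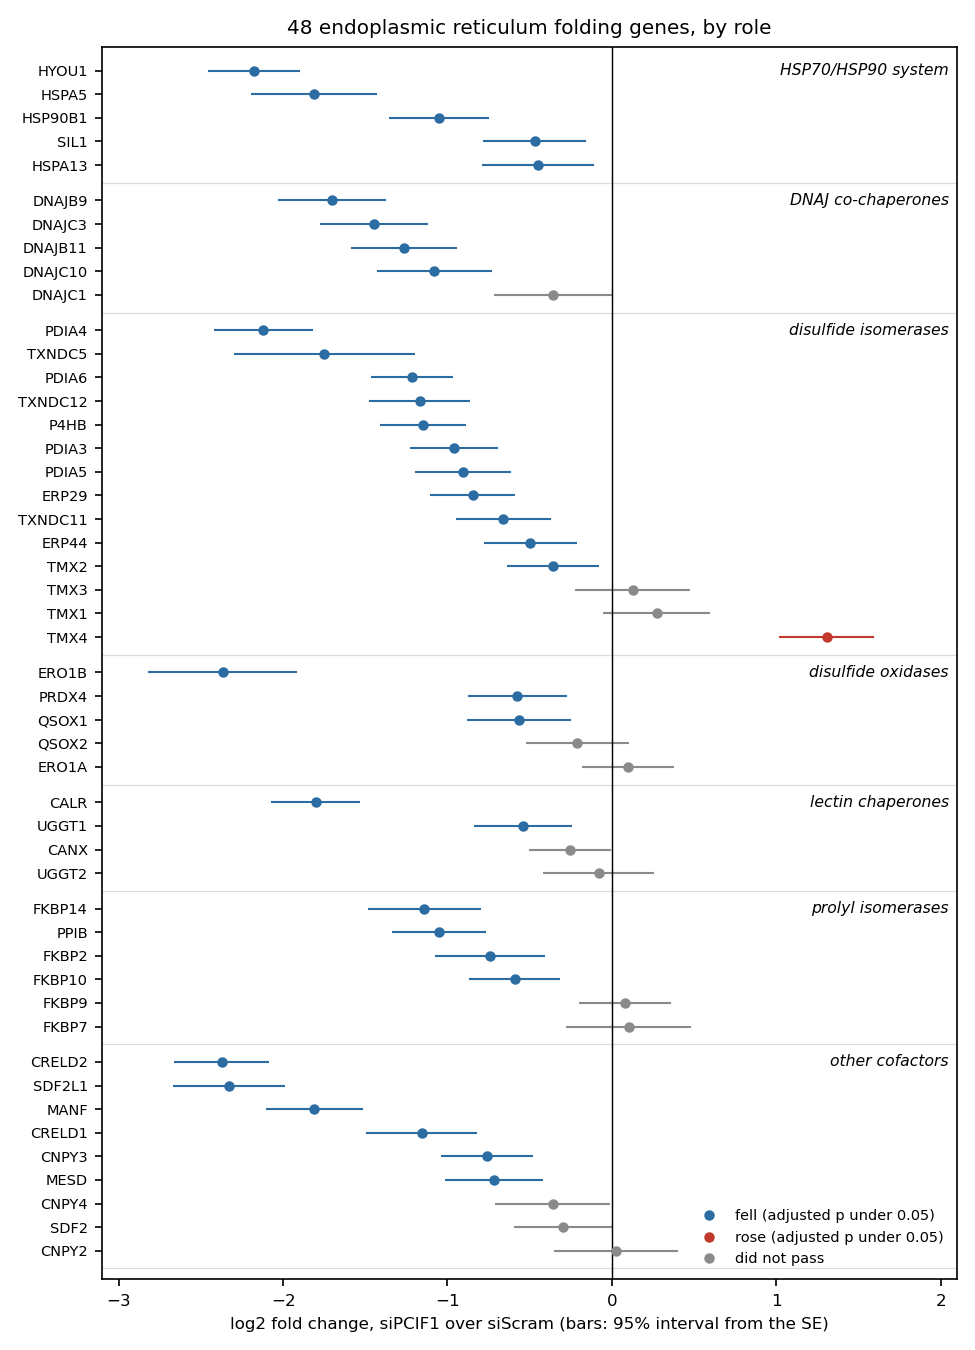
Log2 fold change of each of the 48 genes (x axis, siPCIF1 over siScram, from the authors' deposited table) by role (y axis), with bars for the 95% interval from the SE. The points of 35 genes lie below 0 and pass, TMX4 passes above 0 at 1.31, and 12 grey points did not pass.

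The count depends on how the null spread is set. With Wald statistics divided by their robust SD of 2.44, 12 of the 48 fell and TMX4 still rose, against 0.821% lower and 0.151% higher of all genes of the authors' deposited table. The 12 were HSPA5, HYOU1, DNAJB9, DNAJC3, PDIA4, PDIA6, P4HB, ERO1B, CALR, SDF2L1, MANF and CRELD2. PCIF1, which passed as deposited, did not pass on that scale (DESeq2-based adjusted p = 0.744). Nor did it pass in the Wald test against an absolute log2 change of 0.3 (adjusted p = 0.0658).

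In the HSP70 and HSP90 system 5 of 5 genes fell, with a median of -1.05 per the authors' deposited table. With Wald statistics divided by their robust SD, HSPA5 and HYOU1 still passed. HSP90B1, SIL1 and HSPA13 did not (DESeq2-based adjusted p of 0.226, 0.927 and 0.961). HYOU1, a large HSP70 relative that exchanges nucleotide on HSPA5, was at -2.18 (SE 0.14, DESeq2 adjusted p = 1.2e-48) per the authors' deposited table. That is 22.1% of its siScram level. HYOU1 (ENSG00000149428.18) lies on chromosome 11 from 119044189 to 119057202 and HSPA5 (ENSG00000044574.7) on chromosome 9 from 125234853 to 125241330 in GRCh38. HSPA5 itself, known as BiP, the most studied luminal HSP70 and the partner that holds the UPR sensors inactive, was at -1.81 (SE 0.20), or 28.4% of the siScram level (95% interval on the log2 scale -2.20 to -1.43, authors' deposited table). HSP90B1, the luminal HSP90 known as GRP94, was at -1.05 (SE 0.15) per the authors' deposited table. The system was uneven. SIL1, the other nucleotide exchange factor of HSPA5, and HSPA13, a small HSP70-like ATPase, were at -0.47 (SE 0.16) and -0.45 (SE 0.17) per the authors' deposited table, and their intervals did not overlap that of HYOU1. SIL1 no longer passed after removal of the trend across GC content, transcript length and mean count (DESeq2-based adjusted p = 0.445).

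The DNAJ co-chaperones, which deliver clients to HSPA5 and start its ATP hydrolysis, had 4 of 5 genes lower and the lowest median of the 7 roles, -1.26 per the authors' deposited table. DNAJB9 was at -1.70 (SE 0.17), DNAJC3 at -1.45 (SE 0.17), DNAJB11 at -1.26 (SE 0.16) and DNAJC10 at -1.08 (SE 0.18) per the authors' deposited table. DNAJC10 also carries thioredoxin domains and reduces disulfides of proteins bound for degradation. DNAJC1, a membrane-bound member, was at -0.36 (SE 0.18) per the authors' deposited table, without passing (DESeq2 adjusted p = 0.123).

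Among the disulfide isomerases 11 of 14 fell and 1 rose, with a median of -0.88 per the authors' deposited table. PDIA4 was at -2.12 (SE 0.15) or 23.0% of the siScram level (DESeq2 adjusted p = 4.21e-40) per the authors' deposited table. The abundant isomerases PDIA6, P4HB (the classical PDI, also a subunit of collagen prolyl hydroxylase) and PDIA3 (the partner of the lectin chaperones) were at -1.22 (SE 0.13), -1.15 (SE 0.13) and -0.96 (SE 0.14) per the authors' deposited table. TXNDC12, PDIA5 and ERP29 were at -1.17, -0.91 and -0.85 per the authors' deposited table, with SEs from 0.13 to 0.16. TXNDC11, a membrane protein, was at -0.66 (SE 0.15) and ERP44, which retains unassembled proteins and the ERO1 oxidases in the early secretory pathway, at -0.50 (SE 0.14) per the authors' deposited table. TXNDC5 was at -1.75 (SE 0.28) per the authors' deposited table at a mean of only 27.1 normalised counts, and its value is uncertain. Of its exon bases 60.6% are shared with the readthrough gene BLOC1S5-TXNDC5 on the same strand.

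As deposited, the thioredoxin-related transmembrane proteins had no common direction. Of the 4 TMX genes 1 rose, 1 fell and 2 did not pass, whereas 10 of 10 other isomerases fell per the authors' deposited table. With Wald statistics divided by their robust SD, only PDIA4, PDIA6 and P4HB of those 10 still passed. TMX4 (ENSG00000125827.8; chromosome 20, 7977348 to 8019829 in GRCh38) was the member that rose, at 1.31 (SE 0.15) or 2.47-fold (DESeq2 adjusted p = 9.34e-17) per the authors' deposited table. TMX1 was at 0.27 (SE 0.17) and TMX3 at 0.13 (SE 0.18) per the authors' deposited table, and neither passed. After removal of the trend TMX1 and TMX3 were at -0.10 and -0.24, still without passing, and TMX4 was at 1.18. The median of the 4 TMX genes was 0.20 as deposited and -0.17 with the trend removed. TMX2 was at -0.36 (SE 0.14) per the authors' deposited table (DESeq2 adjusted p = 0.0396), and at -0.26 with an adjusted p of 0.168 after removal of the trend. The split between TMX genes and the rest was made after the values were seen and was not tested.

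Of the disulfide oxidases and peroxidase, 3 of 5 fell and 0 rose, with a median of -0.57 per the authors' deposited table and of -0.30 after removal of the trend. The ERO1 pair was far apart. ERO1B (ENSG00000086619.13) lies on chromosome 1 from 236215555 to 236281985 in GRCh38. ERO1B, an oxidase known from insulin-producing and other secretory cells, was at -2.37 (SE 0.23), or 19.4% of the siScram level (DESeq2 adjusted p = 1.26e-21) per the authors' deposited table. ERO1A, the widely expressed form, was at 0.10 (SE 0.14) per the authors' deposited table, without passing (DESeq2 adjusted p = 0.636). ERO1A was also the more abundant RNA, with 110.1 against 19.4 mean normalised counts per kb of transcript for ERO1B over all 6 libraries. PRDX4, a peroxidase that uses hydrogen peroxide to make disulfides, and QSOX1 were at -0.58 (SE 0.15) and -0.57 (SE 0.16) per the authors' deposited table, and QSOX2 was at -0.21 (SE 0.16) without passing. PRDX4 did not pass after removal of the trend (DESeq2-based adjusted p = 0.146).

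The lectin cycle was also uneven, with 2 of 4 genes lower, 0 higher and a median of -0.40 per the authors' deposited table. CALR, soluble calreticulin, had 5479 mean normalised counts per kb over all 6 libraries, beside 5396 for PPIB, and stood at -1.80 (SE 0.14) or 28.7% of the siScram level per the authors' deposited table. CANX, calnexin, its membrane-bound relative, was at -0.26 (SE 0.13) per the authors' deposited table, without passing (DESeq2 adjusted p = 0.107). UGGT1, the glucosyltransferase that returns unfolded glycoproteins to both lectins, was at -0.54 (SE 0.15) and fell, whereas UGGT2 at -0.08 (SE 0.17) did not pass per the authors' deposited table.

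Of 6 prolyl isomerases 4 fell and 0 rose, with a median of -0.67 per the authors' deposited table and of -0.32 after removal of the trend. FKBP14 was at -1.14 (SE 0.17) and PPIB, cyclophilin B, at -1.05 (SE 0.15) per the authors' deposited table. FKBP2 and FKBP10 were at -0.74 (SE 0.17) and -0.59 (SE 0.14) per the authors' deposited table, and neither passed after removal of the trend (DESeq2-based adjusted p of 0.092 and 0.15). FKBP7 and FKBP9 were at 0.10 and 0.08 per the authors' deposited table, without passing. FKBP10 and FKBP14 act on collagens.

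The remaining cofactors held 2 of the lowest values. Of these 9 genes 6 fell and 0 rose, with a median of -0.76 per the authors' deposited table. CRELD2, a secreted ER stress protein with isomerase-like activity, was at -2.37 (SE 0.15), or 19.3% of the siScram level (DESeq2 adjusted p = 1.35e-53) per the authors' deposited table. CRELD2 (ENSG00000184164.14) lies on chromosome 22 from 49918167 to 49927540 in GRCh38. SDF2L1, which forms a complex with DNAJB11, was at -2.33 (SE 0.17) or 19.9% per the authors' deposited table. MANF, which binds HSPA5 and is secreted as a neurotrophic factor, was at -1.81 (SE 0.15) per the authors' deposited table. CRELD1, CNPY3 (a cofactor of HSP90B1 for Toll-like receptors) and MESD (a chaperone of the LDL receptor family) were at -1.16, -0.76 and -0.72 per the authors' deposited table, with SEs from 0.14 to 0.17. SDF2, CNPY4 and CNPY2 were at -0.29, -0.36 and 0.03 per the authors' deposited table, without passing.

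Related genes were set side by side. Of 13 pairs of ER genes from one family, 9 had 95% intervals of the log2 fold change that did not overlap per the authors' deposited table, against 27.5% of all possible pairs of its genes. That background is not alike, since the median SE was 0.154 for the 48 members and 0.181 for all genes. The share over all pairs of members was not computed, so whether relatives differ more than other members is unknown. SDF2L1 and SDF2, at -2.33 and -0.29, CRELD2 and CRELD1, at -2.37 and -1.16, and FKBP14 and FKBP7, at -1.14 and 0.10, were such pairs per the authors' deposited table. PDIA6 and P4HB, QSOX1 and QSOX2, UGGT1 and UGGT2, and CNPY4 and CNPY3 had overlapping intervals. The differences themselves were not tested. Set against a cytosolic relative, the ER gene was lower, with intervals apart, in 6 of 7 pairs. Of all possible pairs 27.5% were apart, counted in either direction. DNAJB11 and DNAJB1, 1 of the 6 pairs, both fell. Their intervals were barely apart, with an upper limit of -0.94 for DNAJB11 and a lower limit of -0.90 for DNAJB1. HSPA8, the constitutive cytosolic HSP70, was at 0.18 (SE 0.14, not passing) per the authors' deposited table beside -1.81 for HSPA5. HSP90AB1 and HSPH1, the cytosolic relatives of HSP90B1 and HYOU1, rose by 0.63 (SE 0.13) and 0.66 (SE 0.16) per the authors' deposited table. FKBP2 and FKBP1A, at -0.74 and -0.60 per the authors' deposited table, were the pair whose intervals overlapped. HSPA8, HSP90AB1 and PPIA have many processed pseudogenes of similar sequence, so their values are uncertain.

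**Figure D2:**
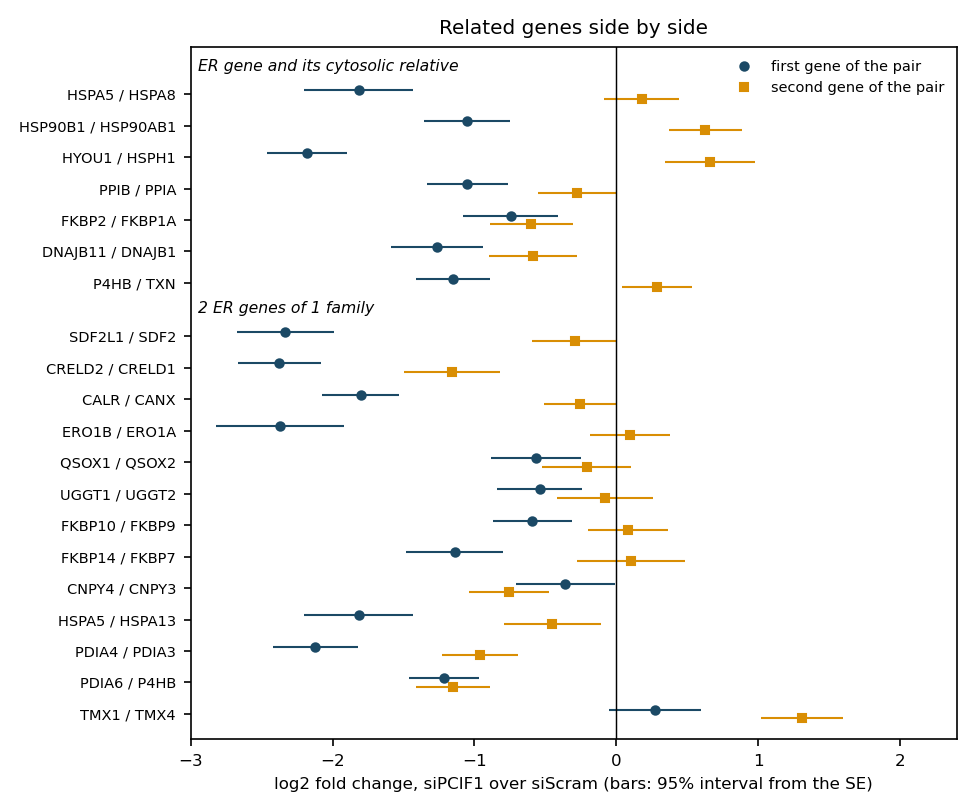
Log2 fold changes (x axis, siPCIF1 over siScram, authors' deposited table) of paired genes (y axis), circles for the first gene and squares for the second, with 95% intervals from the SE. In 6 of 7 pairs with a cytosolic relative the ER gene lies to the left with intervals apart, and ERO1B and ERO1A sit at -2.37 and 0.10. Of all possible gene pairs 27.5% were apart in either direction.

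The transcription factors of the UPR act on the ER stress response element (ERSE), CCAAT and CCACG separated by 9 bases, to which NF-Y and then ATF6 or XBP1 bind. ERSE-II is ATTGG and CCACG separated by 1 base. Both were searched on both strands of the RefSeq promoter windows of GRCh38.p14, from 250 bases before to 50 bases from each start. Of the 48 members 43 had a window; DNAJC1, PDIA3, QSOX2, FKBP10 and FKBP14 had none in the table. A match is a description of letters, not of binding. The ERSE matches of members are shown because the motif was rare, with 5 flanking bases on each side, the fixed letters of the motif in capitals and each read in the direction of the motif.
HSPA5 (chr9:125241386-125241414, minus strand): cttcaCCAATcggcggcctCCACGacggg
HSP90B1 (chr12:103930211-103930239, plus strand): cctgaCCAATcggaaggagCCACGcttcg
HSP90B1 (chr12:103930316-103930344, minus strand): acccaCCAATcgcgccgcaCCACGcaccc
CALR (chr19:12938379-12938407, minus strand): accgaCCAATgatggtcgaCCACGcgtgg
CANX (chr5:179698773-179698801, plus strand): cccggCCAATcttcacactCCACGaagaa
PDIA6 (chr2:10812848-10812876, minus strand): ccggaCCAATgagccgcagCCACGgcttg
ERO1B (chr1:236282178-236282206, plus strand): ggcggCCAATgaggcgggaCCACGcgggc
CRELD2 (chr22:49918549-49918577, minus strand): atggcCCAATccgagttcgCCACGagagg

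The ERSE-II matches of members were in HYOU1, with 2, and SDF2L1, with 1.
HYOU1 (chr11:119057269-119057289, plus strand): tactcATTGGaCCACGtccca
HYOU1 (chr11:119057375-119057395, plus strand): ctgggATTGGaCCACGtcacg
SDF2L1 (chr22:21642109-21642129, minus strand): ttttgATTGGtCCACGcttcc

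The ERSE stood in 27 of 35116 promoter windows, or 0.077%, and was found for 16 of 9830 measured genes with a window, or 0.163%, and 7 of the 43 members, or 16.3%. ERSE-II stood in 19 windows, or 0.054%, and was found for 13 measured genes, or 0.132%, and 2 members. Whether promoters of these members had served to define the motifs was not checked. The shares are therefore a description and no independent support. Of the 7 members with an ERSE 6 fell, with a median log2 fold change of -1.80 per the authors' deposited table. CANX was the exception, with the motif near 3 of its listed starts and a value of -0.26 per the authors' deposited table. Both members with ERSE-II fell. Members with neither motif fell too, 24 of 34 with a median of -0.62, against 8 of 9 and a median of -1.81 for those with either per the authors' deposited table. Among the 13 family pairs, SDF2L1, CRELD2, ERO1B, HSPA5 and PDIA6 had a match of either kind and their partners none. The first 4 of these had intervals below those of SDF2, CRELD1, ERO1A and HSPA13, and PDIA6 overlapped P4HB. CALR and CANX both had a match, and TMX1 and TMX4 had none, yet the intervals were apart in both pairs. PDIA4 and PDIA3, FKBP10 and FKBP9, and FKBP14 and FKBP7 were also apart, with no match found and no window for PDIA3, FKBP10 and FKBP14. Allowing 1 mismatch, 11 of 43 members had an ERSE, CRELD1 among them, against 2.64% of measured genes.

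Outside the 48 genes, 9 further measured genes had an exact ERSE, and 6 of them fell per the authors' deposited table, against 17.7% of all its genes. ALG12, 1 of the 6, shares its match with the member CRELD2. Whether promoters of these further genes, or of those with ERSE-II, had served to define the motifs was not checked either. XBP1, the UPR factor, was at -1.32 (SE 0.16), FICD, which modifies HSPA5 by AMPylation, at -1.48 (SE 0.18), SERP1, a protein of the translocon, at -1.20 (SE 0.16), and the mannosyltransferase ALG12 at -0.96 (SE 0.15) per the authors' deposited table. TRIM5 and TMEM120A also fell, ZNF17 rose at 0.78 (SE 0.24), and SYNPO and EIF2A did not pass per the authors' deposited table. Of 11 such genes with ERSE-II 5 fell, among them HERPUD1, an ER-associated degradation factor, at -1.57 (SE 0.16) per the authors' deposited table. Over all 16 measured genes with an ERSE the median was -1.12 per the authors' deposited table, with 12 lower and 1 higher. The UPR element TGACGTGG, the core bound by XBP1, was more frequent, in 0.729% of windows, for 1.23% of measured genes and for 4 members, HYOU1, DNAJC10, TXNDC5 and TXNDC11, all of which fell per the authors' deposited table. Of all 121 measured genes with it 36 fell and 21 rose, where 17.7% of all genes fell and 16.3% rose. The ATF4-type element TGATGCAAT stood in 0.236% of windows, for 0.203% of measured genes and for 0 members.

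**Figure D3:**
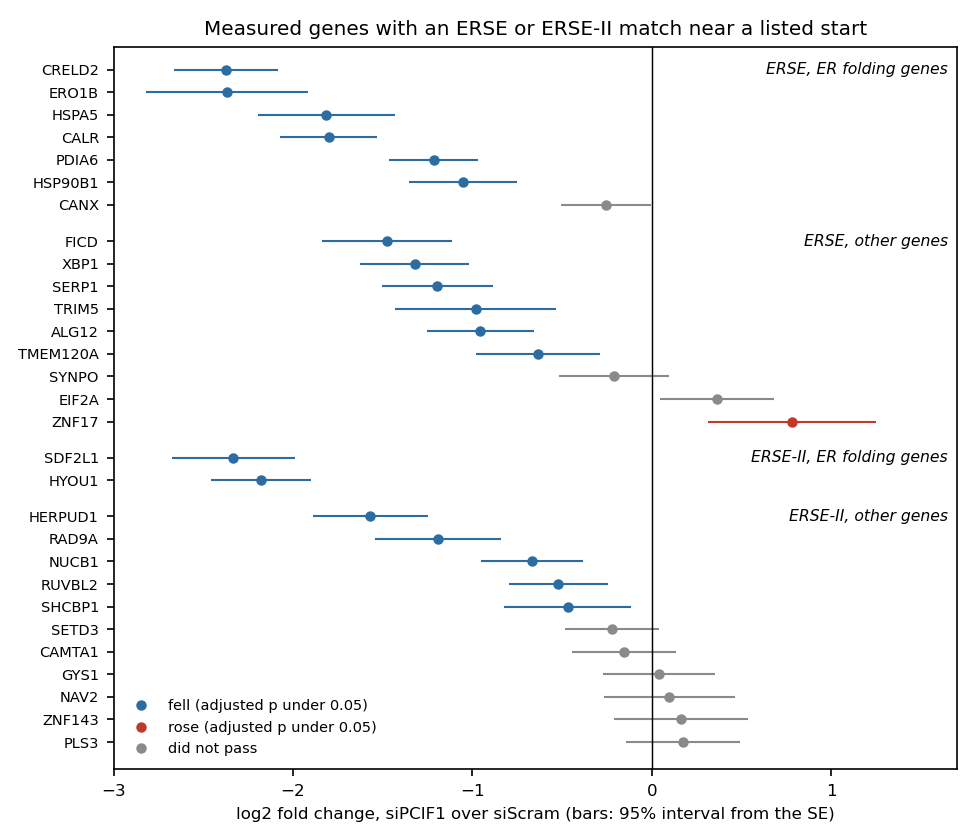
Log2 fold change (x axis, siPCIF1 over siScram, authors' deposited table) of each measured gene with an exact ERSE or ERSE-II in a listed promoter window (y axis), with bars for the 95% interval from the SE. Members with an ERSE lie between -2.37 and -0.26, and 1 gene, ZNF17, rose.

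HSPA5 is shown in full before its start, since its promoter is the best studied of these. The 250 bases (GRCh38.p14, chr9:125241344-125241593, minus strand) hold 4 CCAAT and 1 CCACG in either orientation, in capitals, and end at the base before the listed start.
HSPA5: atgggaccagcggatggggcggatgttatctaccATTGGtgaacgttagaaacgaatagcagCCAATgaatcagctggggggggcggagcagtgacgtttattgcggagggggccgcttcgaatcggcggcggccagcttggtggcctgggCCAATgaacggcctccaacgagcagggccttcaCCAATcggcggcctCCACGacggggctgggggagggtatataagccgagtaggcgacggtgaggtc

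PCIF1 methylates mRNAs that begin with adenosine, so the first base at the RefSeq starts was read. Of the 43 members 20 had an A at every listed start, 19 at none and 4 at some. Of those with an A at every start 14 fell and 0 rose, with a median of -0.71 per the authors' deposited table. Of those with none 15 fell and 1 rose, with a median of -0.76 per the same authors' deposited table. HYOU1, MANF and ERO1B had an A at every start, and CALR, HSPA5, PDIA4, CRELD2 and SDF2L1 at none. Among all measured genes with a window, 37.1% had an A at every start, 17.9% of which fell, and 45.6% at none, 18.6% of which fell. Listed starts are annotations and may differ from the starts used in these cells. Of the 57 windows of members, 46 had their first 25 transcribed bases in a GENCODE transcript of the gene. The first bases and the motif windows both rest on these starts.

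Members were also ordered by level per length, without a test. Of the 12 highest, with 943.7 to 5479 mean normalised counts per kb, 11 fell, with a median log2 fold change of -1.18 per the authors' deposited table. Of the next 12, with 189.0 to 937.6 per kb, 11 fell, with a median of -0.75. Of the third 12, with 81.1 to 174.0 per kb, 6 fell, with a median of -0.43, and of the 12 lowest, with 9.16 to 67.8 per kb, 7 fell, with a median of -0.55. Over all genes of any level 17.7% fell. The share of all genes at like levels was not computed, and calls can depend on the count itself. ERO1B and DNAJC10 were low in level yet far below 0, and CANX, the 5th highest at 1982 per kb, was near 0. Across the 48 members, which share the same libraries, Spearman's rho of the log2 fold change was -0.33 with the mean count, -0.30 with the transcript's GC content and 0.21 with its length. Over all genes of the authors' deposited table the rho was -0.11 with the mean count, -0.42 with GC content and 0.24 with length. With the trend in GC content, length and expression removed, 30 members fell and 1 rose, with a median of -0.72, against 12.9% of all genes lower and 12.5% higher. The genes lay on 21 chromosomes. Of the 48 members 26 share exon bases with another annotated gene, and whether reads were counted by strand is not given here. PDIA6, PPIB, CNPY2 and TXNDC12 share 25.2%, 27.2%, 28.2% and 36.1% of their exon bases with 1 such gene, so their values are less certain.

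Neighbouring parts of the ER and the regulators of these genes also held many genes that fell, while among chaperones of other compartments more rose. Of all genes 17.7% fell and 16.3% rose. Of 26 measured ER-associated degradation and translocon genes 19 fell and 1 rose, with a median of -0.67 per the authors' deposited table. The ubiquitin ligase SYVN1 and its partner SEL1L were at -1.80 (SE 0.18) and -1.51 (SE 0.15), the channel subunit SEC61A1 at -1.26 (SE 0.13), and SEC62, the one that rose, at 0.93 (SE 0.18) per the authors' deposited table. Of 15 measured UPR sensors and factors 9 fell and 2 rose, with a median of -0.63 per the authors' deposited table. The 2 of 15 are near the share of all genes that rose. All 3 sensors were lower, ERN1 at -0.86 (SE 0.18), ATF6 at -0.66 (SE 0.15) and EIF2AK3 at -0.58 (SE 0.16), and ATF4 and DDIT3, factors of the PERK branch, were at -1.28 (SE 0.14) and -1.63 (SE 0.18) per the authors' deposited table. The 2 that rose were MBTPS2, a protease that activates ATF6, at 0.46 (SE 0.15), and NFYA, a subunit of the CCAAT-binding NF-Y, at 0.61 (SE 0.18) per the authors' deposited table. ERN1, ATF6 and EIF2AK3 lost their call with Wald statistics divided by the robust SD, at DESeq2-based adjusted p of 0.63, 0.696 and 0.851.

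In contrast, 14 of 33 measured cytosolic and mitochondrial chaperones and folding enzymes rose and 3 fell, with a median of 0.30 per the authors' deposited table. Of all genes 16.3% rose and 17.7% fell. The mitochondrial chaperonin HSPD1 was at 0.84 (SE 0.17), the chaperonin subunit CCT8 at 0.72 (SE 0.14) and the glutaredoxin GLRX at 1.27 (SE 0.19) per the authors' deposited table. The 3 that fell were BAG3, a cofactor of HSP70 in stress and autophagy, at -1.42 (SE 0.23), FKBP1A at -0.60 (SE 0.15) and the heat-inducible DNAJB1 at -0.59 (SE 0.16) per the authors' deposited table. BAG3 had a mean of only 57.1 normalised counts, and its value is less certain. The lists were not tested against each other.

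**Figure D4:**
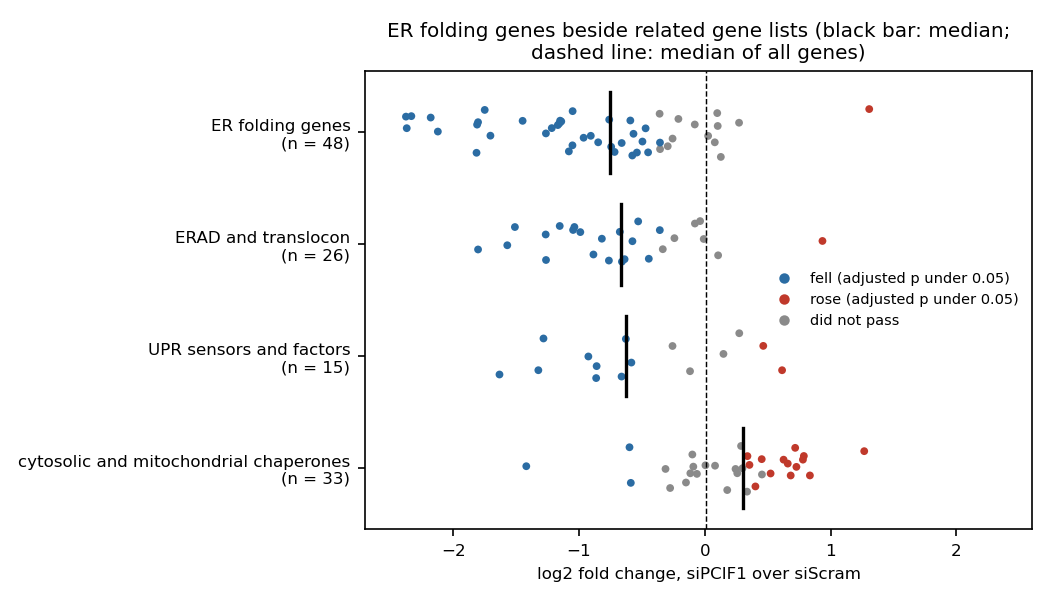
Log2 fold change (x axis, siPCIF1 over siScram, authors' deposited table) of each measured gene in 4 lists (y axis), with a black bar for the list's median and a dashed line for the median of all genes. The ER folding genes, the ER-associated degradation (ERAD) and translocon genes and the UPR genes have medians of -0.75, -0.67 and -0.63, and the cytosolic and mitochondrial chaperones one of 0.30.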

How the data were processed

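RNA-seq of 6 samples of BE(2)-C cells was analysed from 1 table. The libraries were poly(A)-selected and strand-specific, per the labels' protocols. Per the submitters' processing notes, STAR 2.7.10a, cutadapt 3.7, bcl2fastq 2.20, DESeq2, HTSeq, deepTools and the build hg38 were used; settings and annotation are not given here. The authors deposited the mean normalised count, a signal averaged over the libraries. The log2 fold change and SE are on the log2 scale as deposited, the Wald statistic a deposited score, and the p-value and adjusted p-value were deposited by the authors. Adjusted p equalled a Benjamini-Hochberg adjustment over all 13885 genes. Fold changes appear shrunken towards 0, so large changes may be understated; estimates without shrinkage assumed a normal prior with an SD of 0.59.

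Symbols, coordinates, exons and main transcripts came from GENCODE 29 on GRCh38, with 13877 of 13885 identifiers matched. Promoter windows came from RefSeq (GRCh38.p14). Depth per library is unknown, and SEs ran from 0.12 to 0.30. Genes with a DESeq2 adjusted p under 0.05 were called, and lists were described by counts and medians without a test. All members could be named; of other lists, those with the smallest adjusted p, pair partners, the main UPR factors and the few that went in 1 direction. Further genes were named after their values were seen. The trend was removed by regression on quadratic terms of GC content, log length and log mean count. Members and lists were chosen with earlier results of these data known. Steps were tested on simulated data whose spread followed the deposited SEs. The wider spread of the Wald statistics in these data, with a robust SD of 2.44, was not simulated. Computation used pandas 2.3.3, scipy 1.17.1 and numpy 2.4.6 under Python 3.11.15, and plots used matplotlib 3.10.9.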

Additional observations from a re-analysis of the deposited data

How the results depend on the processing

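The count of members that fell stayed between 24 and 35, and that of members that rose at 1, with an adjusted p under 0.01 or 0.1, a minimum change of 0.5, a test against a change of 0.3, centring, a mean of at least 100 and the trend removed. With Wald statistics divided by their robust SD, 12 members fell, and 114 genes fell and 21 rose in all. For all genes, 1489 rose at an adjusted p under 0.01, and 723 fell and 537 rose in the test against 0.3. With the trend removed, the median was -1.56 for the DNAJ co-chaperones, -0.30 for the disulfide oxidases, -0.55 for the lectin chaperones and -0.32 for the prolyl isomerases. Among genes averaging 100 counts or more it was -0.39 for the oxidases, which lose ERO1B, and -0.96 for the other cofactors, which lose CNPY2. The causes of the other shifts were not tested. Estimated without shrinkage, the median of the members was -0.82. No paired analysis was possible because the table has no value per library, and leaving out each replicate was not run for the same reason. How far single libraries carry any value is therefore unknown.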

Other observations

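Among the ERSE matches, 2 lie in the windows of a pair of genes that are read in opposite directions. The distances are from RefSeq starts; in GENCODE 29, CRELD2 and ALG12 share 168 exon bases and the match lies within the span of CRELD2. CRELD2 and ALG12 share 1 match, which ends 61 bases from the start of CRELD2 and 115 bases from that of ALG12. CRELD2 was at -2.37 (SE 0.15) and ALG12 at -0.96 (SE 0.15) per the authors' deposited table, both with a DESeq2 adjusted p under 0.05. SERP1 and EIF2A share the other, 213 and 58 bases from their starts. SERP1 was at -1.20 (SE 0.16) per the authors' deposited table, and EIF2A, a translation initiation factor, at 0.36 (SE 0.16) without passing. Both pairs were noticed after the values were seen, and no difference within a pair was tested.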
